A study of Homo sapiens with 24 samples.

Results

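CHAC1 and 6 genes of cysteine and glutathione metabolism, CTH, CBS, GCLC, GSS, GGT1 and GPX4, were followed in Huh7.5.1 cells, a subline of the human hepatoma line Huh7. The 7 genes were chosen by name with earlier results of these arrays known, in which the level of CHAC1 and its correlation with the others had been seen, and each was read from its probe set with the highest mean. Their levels over the 24 arrays and their correlations are therefore descriptions, with no test. Of the 7, 5 had a probe set of their own among the 18274 genes measured, CBS shared its probe set (8070632) with its near-identical copy LOC102724560, and no probe set is named GGT1 in the annotation used here. The shared probe set is called CBS/LOC102724560 below, and its values cannot be assigned to either gene. Cells had been given silymarin (a flavonolignan mixture from milk thistle) or the solvent DMSO, and every sample title carries the word novirus. There were 4 silymarin and 4 DMSO arrays at 4 h, 3 and 5 at 8 h, and 3 and 5 at 24 h, 24 in all, each an Affymetrix Human Gene 1.0 ST array hybridised with 1 RNA sample. No dose of silymarin is stated in the labels. Whether replicates are independent cultures is not stated either, and p-values then measure only the spread between these samples, which may be technical.

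Cysteine is the limiting building block of glutathione, the main thiol antioxidant of cells, and liver cells can make cysteine from methionine by transsulfuration. CBS joins homocysteine to serine, CTH cleaves the product to cysteine, GCLC is the catalytic subunit of the enzyme that couples cysteine to glutamate, and GSS adds glycine to complete glutathione. CHAC1 cleaves glutathione inside cells and GGT1 cleaves it at the cell surface, while GPX4 spends glutathione to reduce lipid peroxides in membranes, a reaction that protects from ferroptosis. CHAC1 and CTH are known targets of ATF4, the transcription factor of the integrated stress response, and GCLC of the antioxidant factor NRF2.

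Values are log2 expression after robust multi-array averaging (RMA), and array medians lay between 7.04 and 7.18. The 10 hepatocyte markers measured averaged 9.76 to 13.34 over the 24 arrays, with ALB at 13.34 and AFP at 13.13. Markers of stellate cells or fibroblasts, endothelial cells, macrophages and T cells averaged 3.38 to 8.45, and of these 20 genes CD68 lay above 7.90, the median of all gene means. The correlation between any 2 arrays was 0.992 to 0.998, and no 2 arrays held identical values. In RNA of whole cultures, a change in every cell and a change in the share of cells that express a gene cannot be told apart.

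The start regions of 4 of the genes are printed because CHAC1, CTH and GCLC moved together across arrays and GPX4 hardly moved. Each is the RefSeq window from 250 bases before to 50 bases after the annotated start on GRCh38.p14, written 5′ to 3′ on the strand of the gene, with motif matches in capitals. The CHAC1 window is chr15:40953221-40953520 on the plus strand, CTH is chr1:70411018-70411317 on the plus strand, GCLC is chr6:53545052-53545351 on the minus strand, and the first of 3 GPX4 windows is chr19:1103744-1104043 on the plus strand.
CHAC1: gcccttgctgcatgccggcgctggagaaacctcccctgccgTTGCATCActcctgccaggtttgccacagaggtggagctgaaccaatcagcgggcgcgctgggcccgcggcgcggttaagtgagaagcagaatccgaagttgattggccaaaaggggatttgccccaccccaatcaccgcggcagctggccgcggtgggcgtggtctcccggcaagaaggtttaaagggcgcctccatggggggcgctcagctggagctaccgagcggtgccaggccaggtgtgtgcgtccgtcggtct
CTH: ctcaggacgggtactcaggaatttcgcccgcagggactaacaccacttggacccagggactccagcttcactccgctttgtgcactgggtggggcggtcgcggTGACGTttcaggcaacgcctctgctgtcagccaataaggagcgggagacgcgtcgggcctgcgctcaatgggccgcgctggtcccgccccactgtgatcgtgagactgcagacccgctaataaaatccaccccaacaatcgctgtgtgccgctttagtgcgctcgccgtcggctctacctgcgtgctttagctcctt
GCLC: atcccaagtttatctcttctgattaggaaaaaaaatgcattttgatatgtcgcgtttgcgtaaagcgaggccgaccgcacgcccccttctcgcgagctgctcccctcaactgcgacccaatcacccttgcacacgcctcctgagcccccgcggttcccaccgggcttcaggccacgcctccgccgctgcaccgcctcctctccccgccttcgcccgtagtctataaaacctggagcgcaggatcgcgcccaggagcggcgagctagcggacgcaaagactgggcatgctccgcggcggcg
GPX4: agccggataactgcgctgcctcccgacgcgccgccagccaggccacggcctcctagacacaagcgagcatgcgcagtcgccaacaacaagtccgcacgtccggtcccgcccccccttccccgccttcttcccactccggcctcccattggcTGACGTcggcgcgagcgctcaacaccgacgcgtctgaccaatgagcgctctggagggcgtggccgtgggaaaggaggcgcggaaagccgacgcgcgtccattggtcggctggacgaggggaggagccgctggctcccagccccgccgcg
Both strands were searched for TGATGNAA, the core of the C/EBP-ATF element bound by ATF4 dimers, for TGACGT, the core bound by ATF and CREB factors, and for TGACNNNGC, the core of the antioxidant response element bound by NRF2. The CHAC1 window held the first motif once, as TTGCATCA on the opposite strand from 209 to 202 bases before the start. CTH and GPX4 each held TGACGT once on the strand of the gene, from 147 to 142 bases before the start in CTH and from 99 to 94 in GPX4. The GCLC window held none of the 3, and the third motif was found in 1 of 3 CBS windows and 1 of 2 GGT1 windows. The second GPX4 window, which overlaps the first, held the same TGACGT bases, from 162 to 157 before its own start. Within a window no matches of different motifs overlapped. Among 35116 windows of the RefSeq table, 3.62% held TGATGNAA, 7.98% held TGACGT and 13.35% held TGACNNNGC. These matches describe letters in the window and nothing about binding.

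CHAC1, the enzyme that degrades glutathione, lay on 2 separate levels that cut across the labels of treatment and time. At 4 h it was 11.00, 8.75, 9.12 and 8.37 in silymarin replicates 1 to 4, against 10.34, 8.57, 8.60 and 10.93 in DMSO replicates 1 to 4. At 8 h it was 11.03, 8.71 and 11.00 in silymarin, against 10.52, 8.96, 8.13, 10.95 and 11.03 in DMSO. At 24 h it was 11.11, 9.06 and 9.35 in silymarin, against 8.85, 9.22, 11.22, 8.32 and 9.16 in DMSO. Every group held both high and low arrays, and the groups overlapped at each time. By replicate number, replicate 2 was low in every group, and replicate 1 was high in every group but DMSO at 24 h. What the replicate numbers stand for is not stated, and their relation to the levels was not tested. In all, 10 arrays were at 10.34 or above and 14 at 9.35 or below, and the gap of 1.00 between them was the widest between neighbouring values, the next being 0.42. The high arrays were 4 of 10 silymarin and 6 of 14 DMSO arrays, which is 1 of 4 against 2 of 4 at 4 h, 2 of 3 against 3 of 5 at 8 h, and 1 of 3 against 1 of 5 at 24 h. These 10 and 14 arrays are called the high-CHAC1 and low-CHAC1 arrays below. They were set by CHAC1 itself and are not groups of the study, so levels between them are described and not tested.

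CTH, which releases cysteine in transsulfuration, followed the same arrays. At 4 h it was 9.76, 8.32, 8.86 and 8.72 in silymarin, against 10.10, 8.48, 8.64 and 9.73 in DMSO. CTH at 8 h was 9.73, 8.80 and 10.10 in silymarin, against 9.97, 8.82, 7.96, 10.39 and 10.43 in DMSO. CTH at 24 h was 10.22, 8.11 and 8.96 in silymarin, against 8.45, 8.39, 9.80, 8.46 and 8.66 in DMSO. Its 10 highest arrays were the 10 high-CHAC1 arrays, at 9.73 to 10.43, and the other 14 lay at 7.96 to 8.96.

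The CBS/LOC102724560 probe set did not sort the arrays in that way. At 4 h it was 10.48, 10.50, 10.85 and 10.62 in silymarin, against 10.96, 10.41, 10.80 and 10.74 in DMSO. The 8 h values were 10.70, 10.69 and 10.85 in silymarin, against 11.08, 10.66, 10.26, 11.08 and 10.76 in DMSO. The 24 h values were 10.83, 10.51 and 10.96 in silymarin, against 10.37, 10.53, 10.56, 10.71 and 10.54 in DMSO. Its highest value, 11.08, was reached in DMSO replicates 1 and 4 at 8 h, both high-CHAC1 arrays, while silymarin replicate 1 at 4 h, a high-CHAC1 array, was at 10.48. High-CHAC1 arrays spanned 10.48 to 11.08 and low-CHAC1 arrays 10.26 to 10.96, and 7 of the 10 high-CHAC1 arrays were among its 10 highest.

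GCLC, which makes the first bond of glutathione, moved on a smaller scale. At 4 h it was 9.59, 9.35, 9.44 and 9.45 in silymarin, against 9.84, 9.45, 9.34 and 9.64 in DMSO. GCLC at 8 h was 9.78, 9.40 and 9.76 in silymarin, against 9.49, 9.31, 9.23, 9.67 and 9.81 in DMSO. GCLC at 24 h was 9.77, 9.16 and 9.28 in silymarin, against 9.46, 9.26, 9.77, 9.29 and 9.23 in DMSO. Its 10 highest arrays were again the high-CHAC1 arrays, at 9.49 to 9.84 against 9.16 to 9.46, but with no wide gap between them.

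GSS and GPX4 were nearly constant. GSS, the second enzyme of glutathione synthesis, lay between 10.57 and 10.84 on all 24 arrays, with high-CHAC1 arrays at 10.67 to 10.84 and low-CHAC1 arrays at 10.57 to 10.82. GPX4 lay between 12.86 and 13.04, with high-CHAC1 arrays at 12.88 to 13.04 and low-CHAC1 arrays at 12.86 to 12.99. The array scale itself ended at 13.80 to 13.96, and what closeness to its upper end does to the spread of GPX4 was not tested. For GGT1 no value was analysed here.

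**Figure D1:**
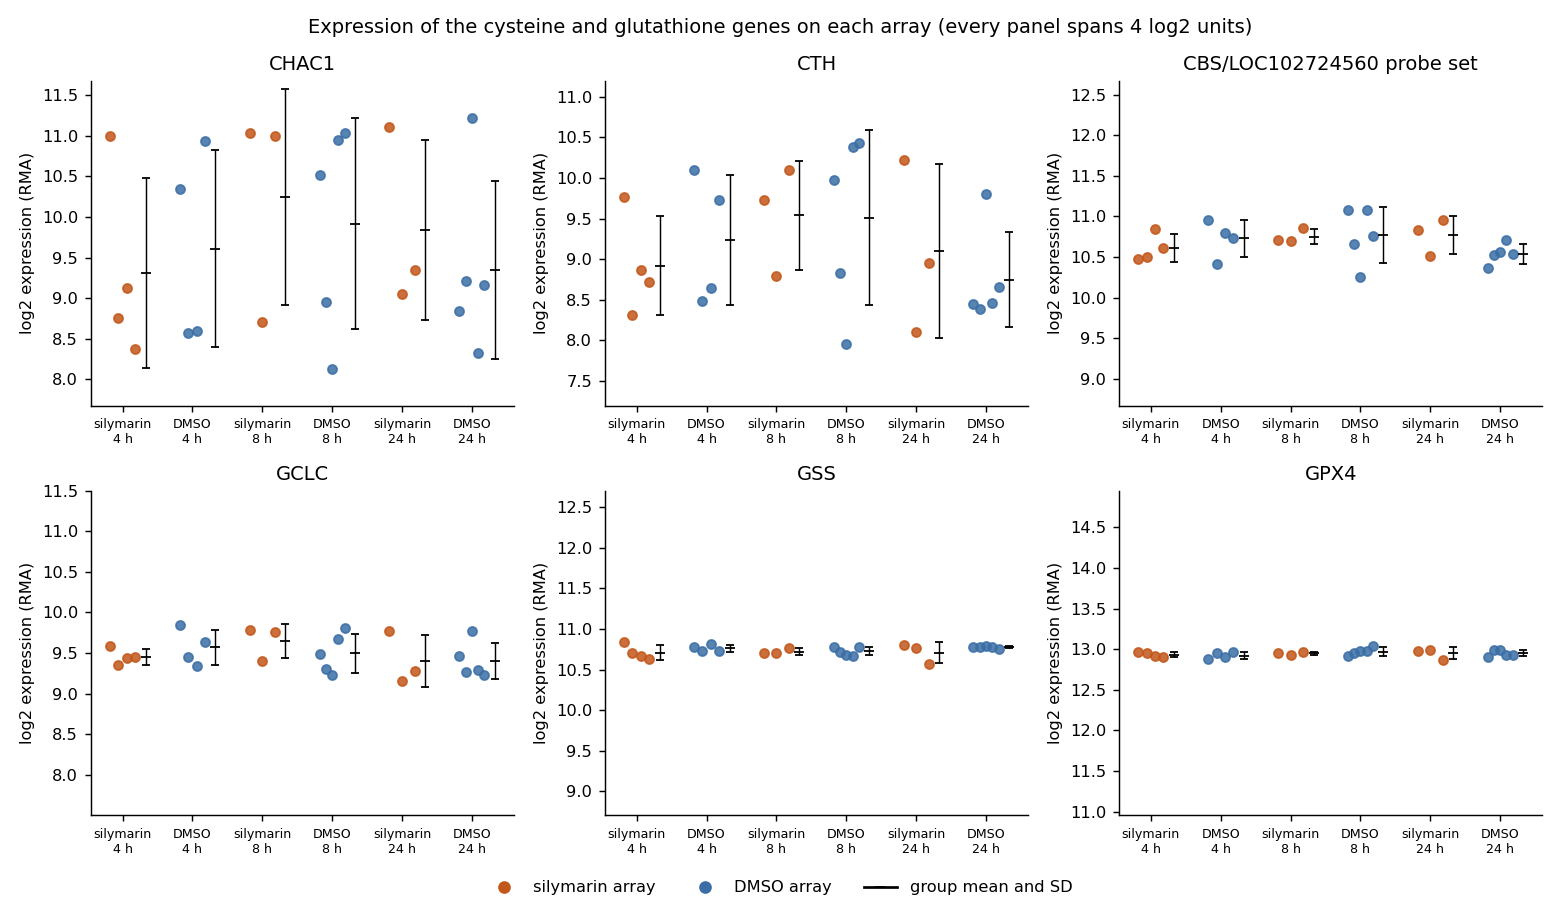
Log2 expression of CHAC1, CTH, the CBS/LOC102724560 probe set, GCLC, GSS and GPX4 (vertical axes, each spanning 4 log2 units) on each array of the 6 groups (horizontal axes), with the group mean and SD beside the points. CHAC1 and CTH split into a high and a low level inside every group, while GSS and GPX4 stay within 0.28 and 0.18.

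The genes differed widely in how far they moved, here as the SD over the 24 arrays on the log2 scale. CHAC1 had an SD of 1.11 and a range of 3.09, and 3 of the 18274 genes had a larger SD. CTH had an SD of 0.79 and a range of 2.47, with 7 genes above it. The CBS/LOC102724560 probe set and GCLC had SDs of 0.218 and 0.217, each larger than about 92% of genes. GSS had an SD of 0.064, with 510 genes below it, and GPX4 one of 0.040, with 27 genes below it. The median gene had an SD of 0.127. Most of this spread lay inside the labelled groups, where CHAC1 kept a pooled SD of 1.20 and CTH one of 0.83, against a median of 0.123 for all genes. CHAC1 and CTH were thus near the top of the array in spread, and GSS and GPX4 near the bottom.

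The comparison of silymarin with DMSO at each time asked what the extract does to expression, and none of the 6 probe sets passed. limma called 0 of 18274 genes (0%) at an adjusted p under 0.05 at 4 h, 0 (0%) at 8 h and 0 (0%) at 24 h. At an unadjusted p under 0.05 it called 2.48%, 3.93% and 3.03% of genes at these times and 0 of the 6 probe sets. The 2 groups overlapped for all 6 probe sets at each time, where 2.18%, 2.93% and 1.95% of genes had groups that did not overlap.

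CHAC1 averaged 9.31 ± 1.17 in silymarin and 9.61 ± 1.21 in DMSO at 4 h (SD, n = 4 each), a difference of -0.30 with a 95% confidence interval of -1.86 to 1.26. The 3 silymarin arrays at 8 h had a mean of 10.25 ± 1.33 and the 5 DMSO arrays one of 9.92 ± 1.30, a difference of 0.33 (-1.28 to 1.94). The 3 silymarin arrays at 24 h had a mean of 9.84 ± 1.11 and the 5 DMSO arrays one of 9.35 ± 1.10, a difference of 0.48 (-1.13 to 2.09). Each interval held 0 and also differences of 1 log2 unit in both directions, so such a difference was not detectable with these arrays. Single arrays turned the sign: the 24 h difference was -0.15 with silymarin replicate 1 left out and 0.95 with DMSO replicate 3 left out. The 8 h difference was -0.12 with DMSO replicate 3 left out, -0.07 and -0.05 with silymarin replicates 1 and 3 left out in turn, and 1.10 with silymarin replicate 2 left out. The 4 h difference was 0.14 with DMSO replicate 4 left out, 0.02 with silymarin replicate 4 left out and -0.86 with silymarin replicate 1 left out. Averaged over the 3 times the difference was 0.17 (-0.75 to 1.09), or -0.04 and -0.02 when the first silymarin replicate of 24 h or of 4 h was left out. In that comparison limma called 0 genes (0%), and at an unadjusted p under 0.05 it called 2.83% of genes and 0 of the 6 probe sets.

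CTH averaged 8.92 ± 0.61 in silymarin and 9.24 ± 0.80 in DMSO at 4 h (SD, n = 4 each), a difference of -0.32 (SE 0.52). Its differences at 8 h and 24 h were 0.03 (SE 0.54) and 0.34 (SE 0.54), and 0.02 (SE 0.31) over the 3 times. With 1 array left out, the 4 h value lay between -0.61 without silymarin replicate 1 and -0.04 without DMSO replicate 1. At 24 h it was -0.22 without silymarin replicate 1 and 0.84 without silymarin replicate 2. At 8 h it lay between -0.36 without DMSO replicate 3 and 0.40 without silymarin replicate 2.

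For the CBS/LOC102724560 probe set, the 3 silymarin arrays at 24 h had a mean of 10.77 ± 0.23 and the 5 DMSO arrays one of 10.54 ± 0.12 (SD), a difference of 0.23 with an interval of -0.08 to 0.54. Its unadjusted limma p of 0.141 was the smallest of any of the 6 at any time, and its adjusted p was 0.99971. It was 0.13 with silymarin replicate 3 left out and 0.36 with silymarin replicate 2 left out. At 4 h and 8 h it differed by -0.12 (SE 0.14) and -0.02 (SE 0.15). GCLC differed by -0.11 at 4 h, 0.15 at 8 h and 0.002 at 24 h (SE 0.15 each). Its 4 h value lay between -0.19 with DMSO replicate 3 left out and -0.02 with DMSO replicate 1 left out.

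For GSS and GPX4 the intervals were narrow. Over the 3 times GSS differed by -0.04 (95% confidence interval -0.11 to 0.03) and GPX4 by -0.004 (-0.06 to 0.05), and the 24 h interval was -0.18 to 0.06 for GSS and -0.10 to 0.10 for GPX4. The lowest and highest bounds for GPX4 at any time were -0.12 and 0.11.

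**Figure D2:**
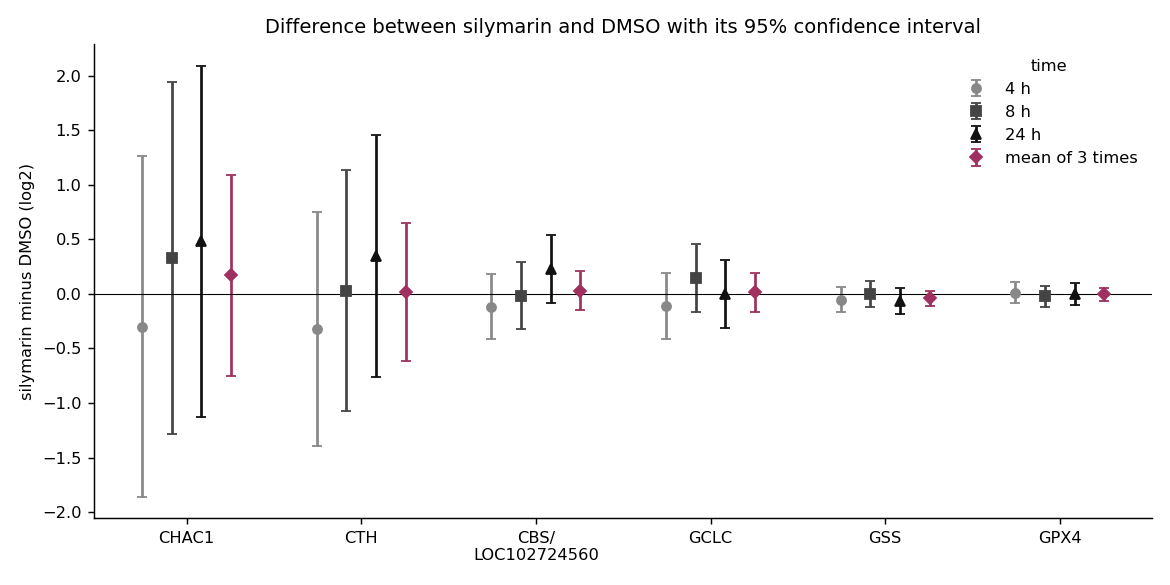
Silymarin minus DMSO on the log2 scale (vertical axis) for each probe set (horizontal axis) at 4 h, 8 h, 24 h and averaged over the times, with 95% confidence intervals from limma as bars. All intervals include 0, and at each time they are widest for CHAC1, for example -1.13 to 2.09 at 24 h, and narrowest for GPX4.

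The change of the silymarin difference with time, and the time course in DMSO, gave no call either. For CHAC1 the difference changed by 0.63 (SE 1.08) between 4 h and 8 h, by 0.15 (SE 1.10) between 8 h and 24 h and by 0.78 (SE 1.08) between 4 h and 24 h. limma called 0 genes (0%) in each of these 3 interactions. In DMSO, CHAC1 at 8 h and 24 h differed from 4 h by 0.31 and -0.26 (SE 0.72 each), and CTH by 0.27 and -0.49 (SE 0.49 each), again with 0 genes (0%) called. At an unadjusted p under 0.05 the interactions called 2.37%, 4.08% and 3.02% of genes and the DMSO comparisons 6.50% and 1.70%, and 0 of the 6 probe sets. The 2 DMSO comparisons share the 4 h arrays.

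Correlations between the genes were computed over arrays, which share the same RNA for each pair of values and the same normalization. They are given without a p-value, since they belong to the choice of the genes. Over 24 arrays CHAC1 had a Pearson r of 0.92 with CTH (Spearman rho 0.80), 0.84 with GCLC (0.69), 0.46 with CBS/LOC102724560 (0.42), 0.38 with GPX4 (0.39) and 0.30 with GSS (0.28). CTH and GCLC had an r of 0.89. The values were similar after each group mean was subtracted, with 0.93 for CTH and 0.87 for GCLC. Without the 2 arrays farthest from the CHAC1 median, silymarin replicate 1 and DMSO replicate 3 at 24 h, r was 0.92 and 0.81.

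These pooled values rest on the separation of the 2 levels. Within the 10 high-CHAC1 arrays, r of CHAC1 was -0.07 with CTH and 0.20 with GCLC, and within the 14 low-CHAC1 arrays it was 0.41 and -0.22. So CHAC1, CTH and GCLC were high on the same arrays, while the correlations inside each level were weak or of either sign. CTH and the CBS/LOC102724560 probe set were related inside both levels, with r of 0.58 in the high-CHAC1 and 0.79 in the low-CHAC1 arrays, and 0.66 over all 24. CHAC1 and CBS/LOC102724560 had opposite signs, -0.61 in the high-CHAC1 and 0.40 in the low-CHAC1 arrays. CHAC1 and GPX4 had an r of 0.81 in the high-CHAC1 and -0.10 in the low-CHAC1 arrays, on a gene whose whole range was 0.18. CTH and GPX4 had 0.34 in the high-CHAC1 arrays and -0.74 in the low-CHAC1 arrays. None of these differences between the levels was tested.

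**Figure D3:**
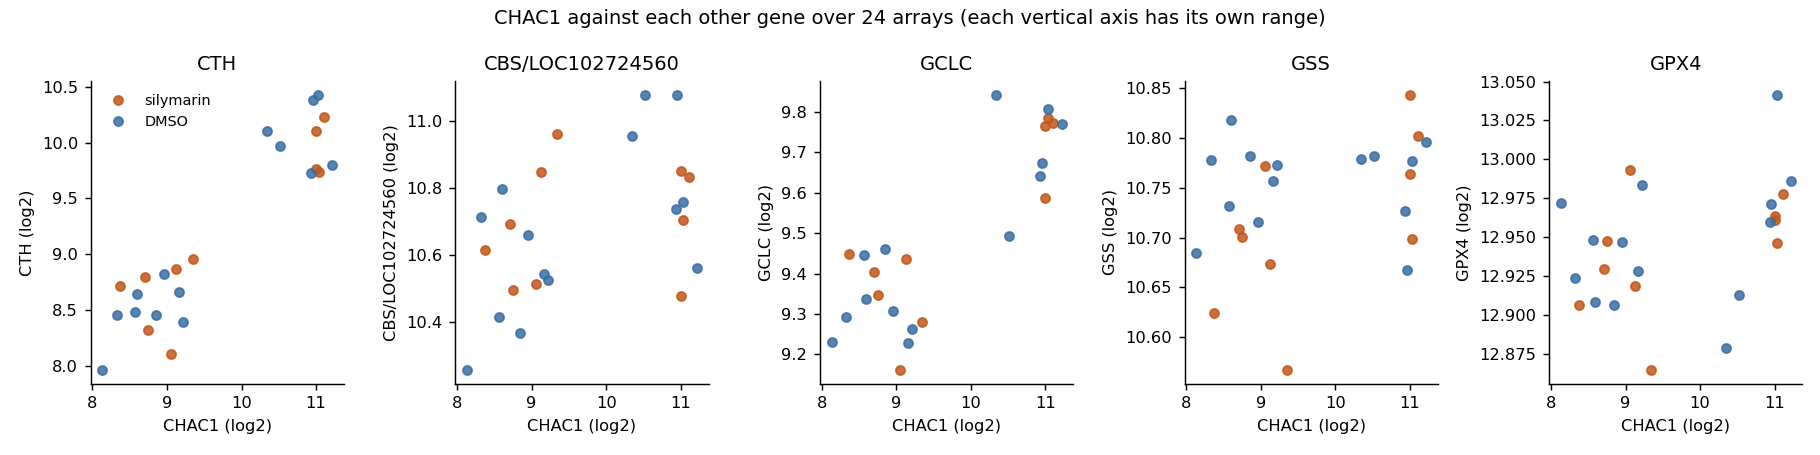
Log2 expression of CTH, CBS/LOC102724560, GCLC, GSS and GPX4 (vertical axes, each with its own range) against CHAC1 (horizontal axes) over 24 arrays, coloured by treatment label. CHAC1 and CTH form 2 clouds with no array between 9.35 and 10.34 of CHAC1, and both labels lie in each cloud.

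The genes most like each of the 6 over the 24 arrays differed between them. For CHAC1 they were DDIT4, a stress-induced inhibitor of mTORC1, with an r of 0.99, the secreted glycoprotein STC2 and the stress sensor SESN2 with 0.98 each, and the cystine importer SLC7A11 with 0.96. The mitochondrial one-carbon enzyme MTHFD2, the transcription factor CEBPB and HERPUD1, which acts in degradation at the endoplasmic reticulum, had 0.95 each and the homeobox gene ISL2 0.94. DDIT4 lay at 9.67 to 10.34 in the high-CHAC1 and 7.50 to 8.35 in the low-CHAC1 arrays. Its r with CHAC1 held inside both levels, with 0.89 in the high-CHAC1 and 0.92 in the low-CHAC1 arrays. HERPUD1 kept 0.91 and 0.79, SLC7A11 had 0.34 and 0.87, and ISL2 0.71 and 0.12.

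The lowest r with CHAC1 were those of the splicing factor SMNDC1 at -0.93, of TXNIP, which binds thioredoxin, at -0.91, and of COIL, ZNF207 and BCL9 at -0.89 each. TXNIP lay at 6.29 to 6.82 in the high-CHAC1 and 6.92 to 7.75 in the low-CHAC1 arrays. Over all genes the median r with CHAC1 was -0.06, and 204 genes outside the set had an r above 0.8 and 67 one below -0.8.

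CTH was most like ASNS, the asparagine synthetase, with an r of 0.97, and PCK2 and IMPDH2 with 0.96 each. ASNS kept 0.91 in the high-CHAC1 and 0.72 in the low-CHAC1 arrays with CTH, while with CHAC1 it had -0.43 and 0.49. The CBS/LOC102724560 probe set was most like PYCR1, of proline synthesis, with 0.92, PHGDH, the first enzyme of serine synthesis, with 0.90, and MCFD2 with 0.90, and these held at 0.96, 0.93 and 0.90 in the high-CHAC1 and at 0.86, 0.92 and 0.87 in the low-CHAC1 arrays. GCLC was most like TXNRD1, the thioredoxin reductase, with 0.94, NEK9 with 0.92 and SEPTIN7P13 with 0.92. GSS was most like COQ4 with 0.84, and GPX4 like PTPN23 with 0.79. For GSS 1 gene and for GPX4 0 genes had an r above 0.8.

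**Figure D4:**
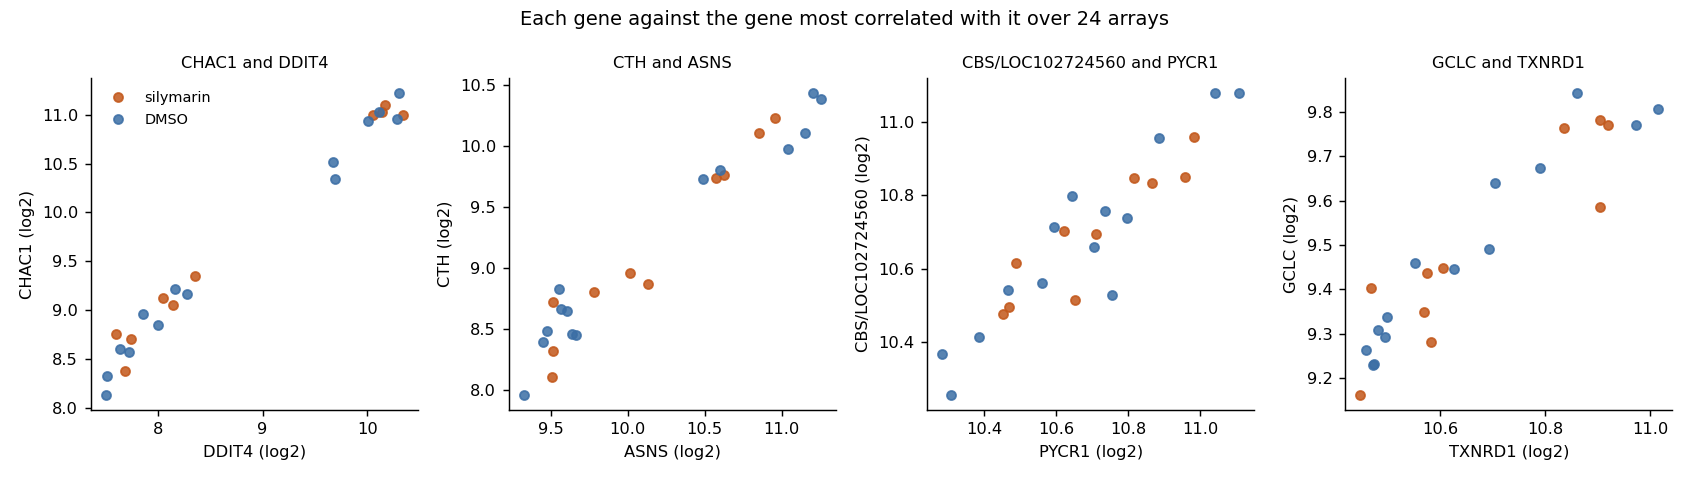
Log2 expression of CHAC1, CTH, CBS/LOC102724560 and GCLC (vertical axes) against the gene most correlated with each, DDIT4, ASNS, PYCR1 and TXNRD1 (horizontal axes), over 24 arrays coloured by treatment label. CHAC1 follows DDIT4 inside both levels, and CBS/LOC102724560 follows PYCR1 in 1 continuous band.

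Genes upstream and downstream of the set were read from 7 lists, 139 of whose 146 entries were measured. In the integrated stress response list, 10 of 23 genes had an r above 0.8 with CHAC1. Over all genes it was 207 of 18274, with CHAC1, CTH and GCLC counted. The list had a median r of 0.77, against -0.06 for all genes. Its median SD was 0.272, against 0.127, and the 3 genes with the largest SD were DDIT4 at 1.14, STC2 at 0.70 and ASNS at 0.68. The list was chosen with results of these arrays known, so its median is not independent evidence.

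Some genes of amino acid uptake followed the CHAC1 levels. SLC7A11, the subunit of the exchanger that imports cystine for glutathione synthesis, lay at 10.55 to 11.16 in the high-CHAC1 and 8.93 to 10.13 in the low-CHAC1 arrays. SLC1A4, a carrier of serine, alanine and cysteine, lay at 9.72 to 10.49 and 9.16 to 9.69. The cysteine list had 4 of 16 genes with an r above 0.8, namely SLC7A11, its partner SLC3A2 (0.89), SLC1A4 (0.88) and the sulfurtransferase TST (0.82), of which SLC3A2 and TST are named after their values were seen. SLC1A1, another cysteine carrier, had an r of -0.31. In the methionine cycle MAT2A (0.88) and SHMT2 (0.82) were the 2 of 12 above 0.8. MAT2A, which makes S-adenosylmethionine, is also named after its value was seen. The liver form MAT1A had an r of -0.46. Its mean was 6.59, below the median of all gene means at 7.90, against 12.60 for MAT2A.

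Glutathione synthesis and use gave fewer genes with an r above 0.8 than the stress response list. Over all genes it was 207 of 18274. That is a smaller share than in the lists of synthesis and of peroxidases and reductases, which rest on 1 and 2 genes. Of 22 genes of synthesis, recycling, cleavage and transport, 1 had an r above 0.8, GCLM, the modifier subunit that pairs with GCLC, at 10.03 to 10.72 in the high-CHAC1 and 9.54 to 10.08 in the low-CHAC1 arrays. Of the family of GGT1, GGT6 had an r of -0.38, GGT5 one of -0.03 and GGT7 one of 0.22. GGT5 and GGT7 are named after their values were seen. Among 21 peroxidases and reductases the NRF2 targets TXNRD1 (0.89) and SRXN1 (0.84) passed 0.8. GPX2 and GPX8, the most variable of them with SDs of 0.45 and 0.38, had -0.33 and -0.14, and GPX8 had a low mean of 5.66. Of 22 glutathione S-transferases 0 passed 0.8. Their most variable members GSTA1 and GSTA2, with low means of 6.63 and 6.56, had 0.00 and 0.11. Among 23 ferroptosis regulators it was CARS1 alone (0.91), the cysteinyl-tRNA synthetase, and HMOX1, the heme oxygenase, had 0.78. GCH1 had 0.39.

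**Figure D5:**
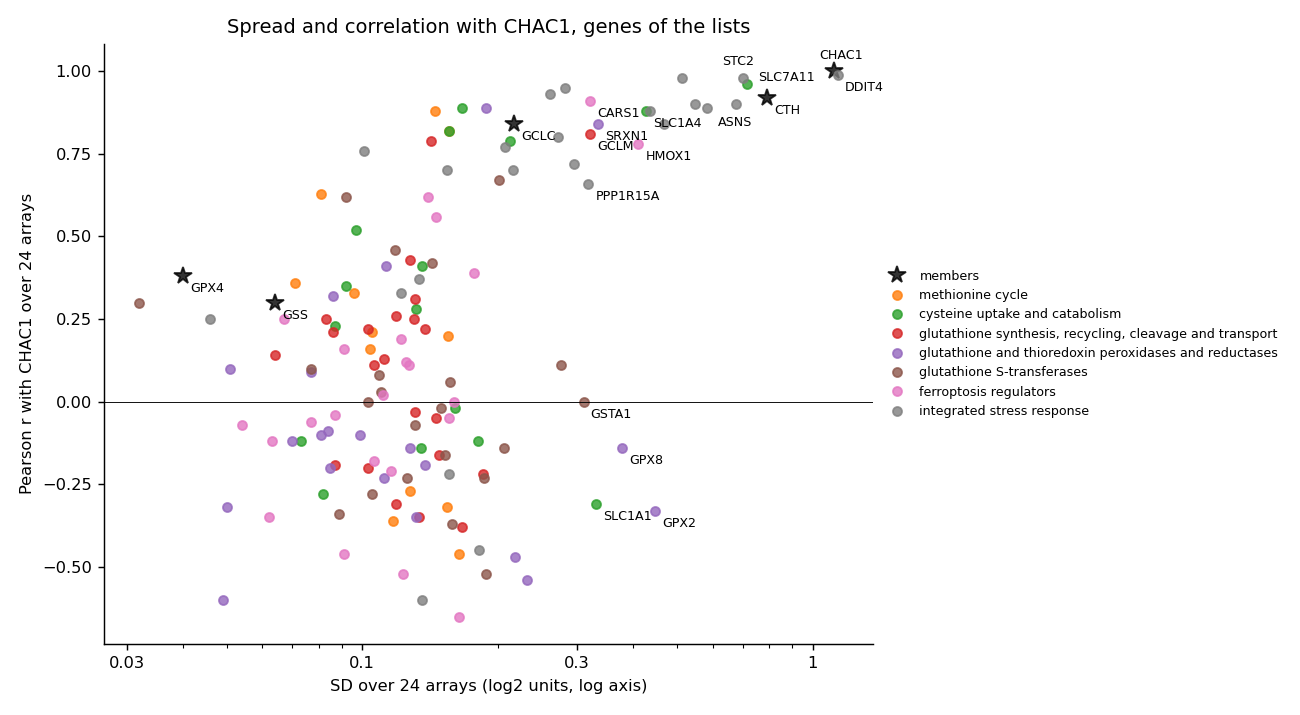
SD over 24 arrays on a log axis (horizontal) against Pearson r with CHAC1 (vertical) for the genes of the 7 lists, with the 5 genes of the set that have their own probe set as stars. Genes with both a large SD and an r near 1 are mostly of the integrated stress response list, with SLC7A11, SLC1A4, CARS1, GCLM and SRXN1 from the others, and GPX4 and GSS lie at the far left.

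Between silymarin and DMSO none of the 7 lists held a gene that passed at any time (limma, 0 of 139). At an unadjusted p under 0.05 there were 2 genes of the 139 at 4 h, NNT and ALOX15, at 0.16 and -0.21, where 2.48% of all genes had such a p. At 8 h there were 4, among them SLC25A40, a mitochondrial glutathione carrier, at -0.16 and the glutaredoxin GLRX3 at 0.13, where 3.93% of all genes did. At 24 h there were 4, namely SLC25A40 at -0.15, MPST at 0.15 and 2 of the stress response list, of which the kinase EIF2AK4 had the smallest p, at -0.18, where 3.03% of all genes did. Over the 139 genes together these counts lay below the shares over all genes. Within single lists they did not: at 8 h, 3 of the 4 genes were among the 21 peroxidases and reductases. At 24 h, 2 of the 4 were among the 23 of the stress response. These are few genes, and no list was tested as a set. At 4 h, where 47.5% of all genes lay above 0, the lists had 2 of 12 genes of the methionine cycle above 0, 6 of 16 of cysteine uptake and catabolism, 11 of 22 of glutathione synthesis, 10 of 21 peroxidases and reductases, 13 of 22 S-transferases, 16 of 23 ferroptosis regulators and 9 of 23 of the stress response. At 8 h, against 42.0% of all genes, the counts in the same order were 8 of 12, 7 of 16, 9 of 22, 17 of 21, 13 of 22, 15 of 23 and 16 of 23. At 24 h, against 56.0%, they were 9 of 12, 11 of 16, 13 of 22, 9 of 21, 13 of 22, 16 of 23 and 17 of 23. The medians of the 7 lists lay between -0.04 and 0.02 at 4 h, -0.01 and 0.08 at 8 h, and -0.01 and 0.10 at 24 h, against -0.01, -0.02 and 0.01 for all genes. The stress response list had the highest median at 8 h and at 24 h and no gene that passed. Members of a list vary together over arrays, and the high-CHAC1 arrays were unevenly shared between the labels at each time, as counted above, so what that share contributes was not tested.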

How the data were processed

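RNA of 24 samples was hybridised to 1 array each. The deposited values are log2 expression per probe set, which the authors made with robust multi-array averaging (RMA) in oligo, per the submitters' processing notes; versions and the genome build are not given in the sources used here. RMA corrects background and sets the probe intensities of all arrays to 1 distribution before they are summarised per probe set. A shift shared by most genes would therefore not be seen. The deposited probe set values kept small differences between arrays, with medians from 7.04 to 7.18. Of 28869 probe sets, 19302 had 1 gene symbol in the platform annotation, 1729 had several and 7838 were not listed. The probe set with the highest mean stood for each of 18274 genes.

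Group means of 6 groups were fitted to all 24 arrays with limma 3.58.1 in R 4.3.3, with Benjamini-Hochberg adjustment over all genes and a threshold of 0.05. The CBS/LOC102724560 probe set was fitted beside the genes. Simulated data held 200 changed genes among 18274. The fit recovered 99.1%, 98.9% and 98.9% of differences of 1 log2 unit at 4 h, 8 h and 24 h. For differences of 0.5 it recovered 83.3%, 84.4% and 89.5%, with 0 false calls. The changes were added to deviations from the group means, which average 0 in every group. An unchanged gene therefore had a difference of 0, so the absence of false calls was fixed in advance. The recovery rates leave out the sampling error of the group means and are no measure of power. These rates are averages over the changed genes and do not carry over to CHAC1 or CTH, which varied far more inside groups. Their pooled SDs there were 1.205 and 0.827, where a typical gene had 0.123 (median). For CHAC1 a difference of 1 log2 unit was not detectable, as described in the results. The number of arrays limits the precision. Alternatives were another normalization, array weights, moderation with trend, a filter on dim genes, averaged probe sets, a replicate block, smaller fits and leaving out each array; the correlations inside each CHAC1 level and a fit of all probe sets were added after seeing the data.

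The members and lists were chosen with earlier results of these data known. Besides the members, genes named are, per list, the 3 with the largest SD and the 1 with the smallest p per silymarin comparison, and those most correlated with each member (8 highest and 5 lowest for CHAC1, 3 highest for the others). Figures were drawn with matplotlib 3.10.9.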

Additional observations from a re-analysis of the deposited data

Results flagged for a closer look

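CTH in DMSO replicate 3 at 24 h, at 9.80, stood far from the other 4 DMSO arrays of that time, which lay between 8.39 and 8.66. Its gap to the nearest of them was 0.81 of the range of the group. It was 1 of 24 sets of values examined for such a gap, and chance gives about 1 in 20, so this is a description and no evidence of its own. The array is the 1 high-CHAC1 array among the 5 of that group, a split already described, and had the highest CHAC1 value of all 24, 11.22.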

How the results depend on the processing

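limma called 0 genes in all 9 comparisons, and 1 gene at 24 h when quantile normalization was repeated and 0 to 1 with an array left out. No member passed in 182 recomputed differences, of which 16 turned sign, nor in 288 with an array left out, of which 55 turned sign. Among the 182, the filter on dim genes, moderation with trend, averaged probe sets and smaller fits could not change a member's difference. The 16 turns came from array weights (9), the replicate block (3), re-centred arrays (2) and repeated quantile normalization (2), so 16 of 182 overstates how stable the signs were. With array weights the difference was -0.502 for CHAC1 and -0.431 for CTH at 8 h, -0.013 for GCLC and 0.018 for GPX4 at 24 h, and over the 3 times -0.125 for CHAC1, -0.210 for CTH, -0.034 for GCLC, 0.001 for GPX4 and -0.015 for CBS/LOC102724560. Re-centred arrays gave 0.013 for GSS at 8 h and -0.003 for GCLC at 24 h, and repeated quantile normalization -0.002 for GCLC and 0.005 for GPX4 at 24 h. With the replicate block GPX4 was 0.007 at 24 h and 0.001 over the 3 times and CBS/LOC102724560 0.025 at 8 h. By correlation of deviations the replicate numbers paired the arrays weakly if at all: 4 of 10 same-numbered silymarin and DMSO pairs were above 0.1. Their median was 0.03, against -0.06 for other numbers. Across all groups 27 of 52 same-numbered pairs were above 0.1, between -0.49 and 0.53. CHAC1 partly followed the numbers, low in replicate 2 of every group and high in replicate 1 of every group but DMSO at 24 h. At 4 h the replicate block gave an SE of 0.676 for CHAC1 against 0.754, and of 0.051 for GPX4 against 0.046. The block called 0 genes. The cause of these turns of sign was not tested.

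With 1 array left out, the difference at 4 h ranged from -0.861 to 0.142 for CHAC1 and from -0.005 to 0.022 for GPX4. At 8 h it ranged from -0.118 to 1.098 for CHAC1, -0.357 to 0.404 for CTH, -0.022 to 0.012 for GSS and -0.144 to 0.062 for CBS/LOC102724560. At 24 h it ranged from -0.154 to 0.947 for CHAC1, -0.220 to 0.839 for CTH, -0.181 to 0.124 for GCLC, -0.108 to 0.010 for GSS and -0.024 to 0.040 for GPX4. Over the 3 times it ranged from -0.041 to 0.427 for CHAC1, -0.171 to 0.182 for CTH, -0.048 to 0.054 for GCLC, -0.012 to 0.009 for GPX4 and -0.011 to 0.074 for CBS/LOC102724560. The r of CHAC1 with CTH became 0.80 as Spearman rho, -0.07 in high-CHAC1 and 0.41 in low-CHAC1 arrays. In high-CHAC1 arrays it became -0.61 for CBS/LOC102724560, 0.20 for GCLC and 0.81 for GPX4, and in low-CHAC1 arrays -0.22 for GCLC and -0.10 for GPX4. These counts of arrays and the spread of CHAC1 limit what could be detected.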
